A study of Mus musculus with 10 samples.

Results

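Chemokines are small secreted proteins that guide leukocytes by binding receptors on their surface, and 47 genes of this system were followed in mouse skin: 31 chemokines and 16 receptors. The genes were taken from a list of names, all 47 of which matched an Ensembl identifier among the 47729 genes counted. The skin came from male C57BL/6 animals in a younger group of 5 (9 months in the labels) and an older group of 5 (24 months), with no treatment or engineered allele named in the labels. The series' design text gives the younger group as 2 months, so the younger age is in doubt throughout; the groups are named here by the labels of the samples. Whole skin was profiled by RNA sequencing with 1 library per title number, which was read as 1 mouse per library. If libraries shared a mouse, the p-values below would speak only to the spread over libraries. In a whole tissue, fewer cells of a type and less RNA per cell cannot be told apart.

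Chemokines are sorted by the spacing of their first cysteines into the CC, CXC, C and CX3C families, and most bind G-protein-coupled receptors of the matching family. Homeostatic members are made steadily and keep resident cells in place, whereas inflammatory members are switched on by cytokines such as interferon-gamma, interleukin-1 and tumour necrosis factor. In skin, keratinocytes, fibroblasts, vessels and macrophages are all known sources, and atypical receptors take up chemokines without G-protein signalling.

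Library totals ranged from 29.3 to 56.0 M counts. A count of 0 allows up to 3 counts, or 0.0536 to 0.102 CPM (counts per 1000000) depending on the library, and this limit covers counting error only. The defining keratinocyte genes, 8 of 8 detected, summed to 13540 to 23320 CPM at 9 months and 10410 to 21950 CPM at 24 months. Skeletal muscle genes summed to 18110 to 51010 CPM at 9 months and 23740 to 41290 CPM at 24 months, and were thus present in every library. The 14 matched genes of growing hair summed to 11510 and 32420 CPM in 9 months replicates 4 and 5 and to at most 369 CPM in each of the other 8 libraries. B and plasma cell genes summed to 1830 and 1430 CPM in 24 months replicates 1 and 3, against at most 869 CPM elsewhere. Fibroblast genes summed to 8240 to 11920 CPM at 9 months and to 1282 to 7259 CPM at 24 months, with no overlap and with 1878 and 1282 CPM in 24 months replicates 1 and 2. Of these 8 genes only the collagens Col1a1, Col1a2 and Col3a1 lay lower in every older mouse, against 1.23% of all genes tested. Their means were 2519, 2498 and 2076 CPM at 9 months and 748, 835 and 726 CPM at 24 months. Pdgfra overlapped, at 65.3 to 87.4 CPM and 41.9 to 92.7 CPM. All 8 had log2 fold changes below 0, 24 months over 9 months. Adipocyte genes summed to 8188 CPM in 24 months replicate 1, the library highest in Ccl5, Cxcl13 and Cxcr5, and to at most 2260 CPM elsewhere. The part of these differences in the results below was not tested.

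The comparison asks how the tissue's leukocyte-guiding signals differ between the ages. Chemokines of monocytes and of effector T cells stood higher at 24 months, most of them in some but not all of the older mice, while none of the homeostatic chemokines or of the Ccr10 ligands had a p under 0.05. Of the 47 genes, 44 passed the filter on low counts and were tested, and 0 had an adjusted p under 0.05 in edgeR's quasi-likelihood test, as for all genes (0.0% of 17668 called). Before adjustment 16 of the 44 had a p under 0.05 with higher values at 24 months, where 6.62% of all genes tested did, and 0 with lower values, against 6.45%. The log2 fold change, 24 months over 9 months, was positive for 35 of 44, against 48.4% of all genes. Its median was 0.48 over the 44 and -0.01 over all genes tested. Every 24 months mouse lay above every 9 months mouse for 2 of the 44, against 1.66% of all genes. These were Ccl8 and Cxcl11, each by a narrow gap. Every older mouse lay below every younger one for 0 of the 44, against 1.23%. By type, 12 of 28 tested chemokines and 4 of 16 receptors were among the 16.

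These 16 depend on the libraries and the model. With a growing-hair score as covariate 7 had a p under 0.05, where 1528 of all 17668 genes tested had one with higher values. Without 9 months replicates 4 and 5, the libraries rich in growing hair, 8 had one, where 839 of 18036 genes did. DESeq2 on the same counts called 7 after adjustment, namely Ccl3, Ccl5, Ccl8, Ccl12, Cxcl9, Cxcl11 and Ppbp, and 384 genes with higher values over all genes. By limma-voom 0 members were called after adjustment, with or without quality weights. Before adjustment limma-voom gave 11 of the 16 a p under 0.05, against 1069 of 17668 genes, and left out Ccl2, Ccl4, Ccl7, Cxcl9 and Cxcl10. Quality weights gave 12, of which 10 were among the 16, against 1177 of 17668 genes. Of the 16, 24 months replicates 3 and 5 each lay above every younger mouse for 14, replicate 1 for 13, replicate 2 for 10 and replicate 4 for 7.

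**Figure D1:**
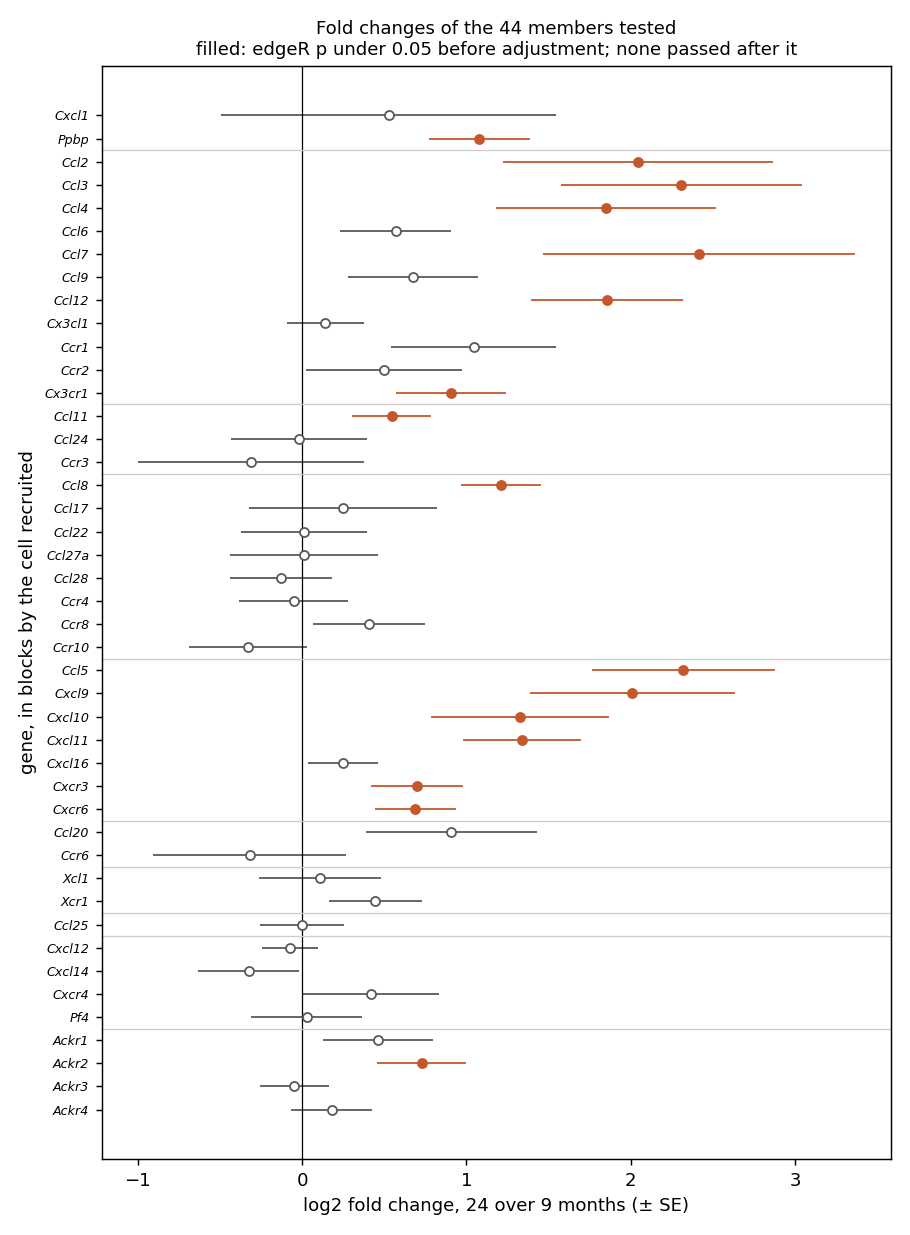
Log2 fold change, 24 over 9 months, with SE for the 44 genes tested, in blocks by the cell the protein is known to recruit; filled points mark an edgeR p under 0.05 before adjustment. The 16 filled points all lie above 0, from 0.54 for Ccl11 to 2.41 for Ccl7, and 9 of the 44 points lie below 0.

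No gene of the list was at 0 in every library. The 3 genes under the filter were the neutrophil chemokines Cxcl2, Cxcl3 and Cxcl5, with at most 41, 4 and 9 counts in any library. Per kilobase of exon, Ccl8 had the highest mean level over the 10 libraries at 231 CPM per kilobase, followed by Cxcl14 at 139, Ccl6 at 68.2 and Pf4 at 46.2. At 9 months alone Cxcl14 stood first, at 154 against 139 CPM per kilobase for Ccl8, and at 24 months Ccl8 did, at 322 against 123. The next levels, from Ackr1 at 27.7 to Ackr3 at 21.8 CPM per kilobase, had overlapping ranges over libraries and give no order among themselves. In all, 14 genes had a mean of at least 10 CPM per kilobase and 14 a mean under 1. Most receptors of migrating leukocytes were in the lower part: Ccr2, the monocyte receptor, led them at 5.42 CPM per kilobase, and Ccr3, the eosinophil receptor, was at 0.144.

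**Figure D2:**
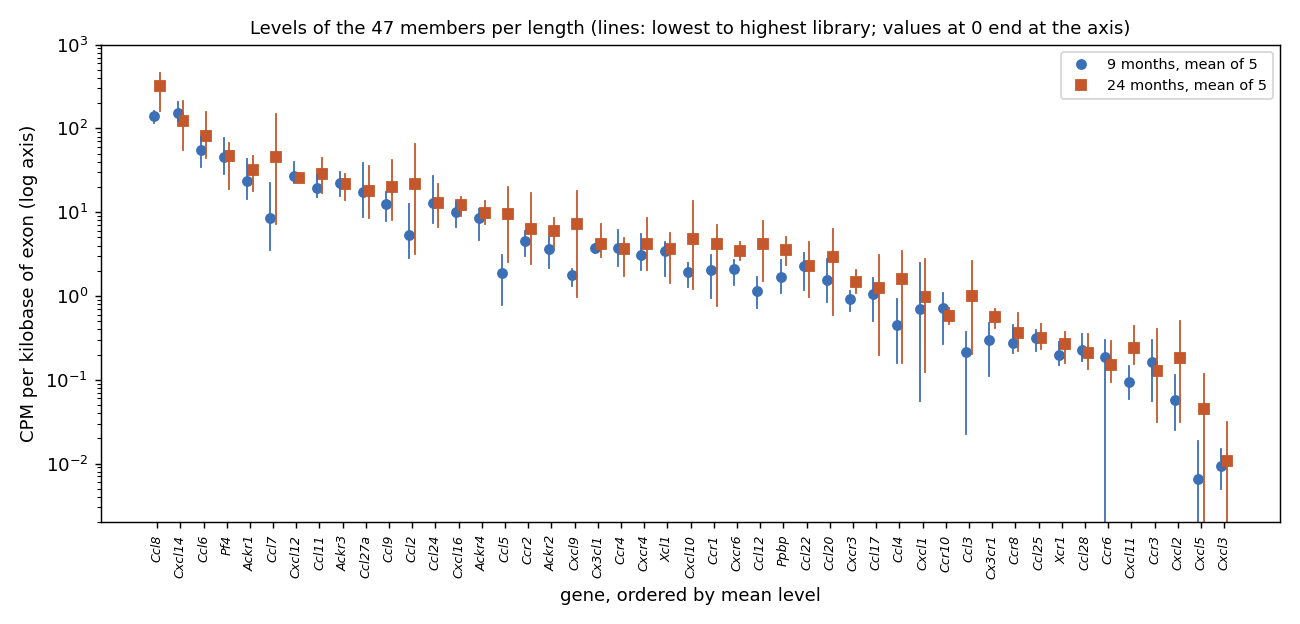
Mean level of each of the 47 genes in CPM per kilobase of exon on a log axis, at 9 months (circles) and 24 months (squares), with lines from the lowest to the highest of the 5 libraries. Ccl8 has the highest mean at 24 months and Cxcl14 at 9 months, and the 3 genes at the right end, Cxcl2, Cxcl5 and Cxcl3, were under the filter.

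Ccl8 is a CC chemokine of skin macrophages that in mice acts through Ccr8 on type 2 T cells. It stood at 73.2, 70.8, 58.5, 71.7 and 81.4 CPM in 9 months replicates 1 to 5 and at 169, 131, 232, 82.3 and 210.0 CPM in 24 months replicates 1 to 5. All 5 older mice lay above all 5 younger ones, narrowly so in 24 months replicate 4, and means were 71.1 ± 8.23 and 165 ± 60.4 CPM (SD, 5 mice each). The log2 fold change was 1.21 ± 0.24 (SE; edgeR adjusted p = 0.142). Without 24 months replicate 4 it was 1.38, with an edgeR adjusted p of 0.0403; over the 20 alternatives it was between 0.93 and 1.38. Its receptor Ccr8 was at 0.247 to 0.532 CPM at 9 months and 0.257 to 0.73 CPM at 24 months, low but above the limit that a count of 0 allows.

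None of the other 7 genes of type 2 and skin-homing T cells had a p under 0.05 before adjustment. Ccl17 and Ccl22, made by dendritic cells for T cells with Ccr4, had log2 fold changes of 0.25 ± 0.57 and 0.01 ± 0.38 (SE), and Ccr4 one of -0.05 ± 0.33. Ccl27a, the keratinocyte chemokine for T cells with Ccr10, ranged over 21.0 to 92.8 CPM at 9 months and 20.2 to 84.9 CPM at 24 months (log2 fold change 0.01 ± 0.45). Ccl27a has near-identical gene copies, so reads may be split among them. Ccl28, an epithelial ligand of the same receptor, and Ccr10 had log2 fold changes of -0.13 ± 0.31 and -0.33 ± 0.36 (SE). In this group 1 of 8 genes, Ccl8, had a p under 0.05 with higher values, against 6.62% of all genes tested. The median log2 fold change was 0.01.

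Ccl8 lies beside Ccl12 on chromosome 11, and the windows before their starts are shown because both genes stood higher at 24 months. Capitals mark TATAAA, the TATA box, searched on both strands over the 250 bases before each start. The sequences are from RefSeq on GRCm38.p6, plus strand, at chr11:82114935-82115184 for Ccl8 and chr11:82101595-82101844 for Ccl12.
Ccl8: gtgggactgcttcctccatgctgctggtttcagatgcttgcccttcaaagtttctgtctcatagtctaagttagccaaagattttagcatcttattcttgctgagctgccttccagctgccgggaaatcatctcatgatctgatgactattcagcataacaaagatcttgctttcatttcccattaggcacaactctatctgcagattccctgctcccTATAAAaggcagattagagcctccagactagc
Ccl12: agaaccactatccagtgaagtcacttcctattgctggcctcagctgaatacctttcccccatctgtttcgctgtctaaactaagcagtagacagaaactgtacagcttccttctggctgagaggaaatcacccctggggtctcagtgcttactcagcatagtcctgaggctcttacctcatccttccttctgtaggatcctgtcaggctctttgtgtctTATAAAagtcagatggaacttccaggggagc
TATAAA lay 32 to 27 bases before the start of Ccl8 and 31 to 26 before that of Ccl12. It was found in 12.4% of all 32851 windows and in 12 of the 37 genes of the list that have a window. The first share counts windows and the second counts genes with a match in any window, so they are not alike in unit. Entries for Ccl2, Ccl4, Ccl5, Ccl7, Ccl11, Ccl24, Ccr10, Cxcl5, Cxcl11 and Cxcl16 were not used here.

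The chemokines that draw monocytes were higher on average at 24 months. All 11 genes of the monocyte and macrophage group had positive log2 fold changes, against 48.4% of all genes tested, with a median of 1.05. Before adjustment 6 had a p under 0.05 with higher values, against 6.62% of all genes tested. Of these 6, only Ccl12 and Cx3cr1 had one with the growing-hair covariate, and only Ccl3, Ccl12 and Cx3cr1 without 9 months replicates 4 and 5. Ccl2, the main ligand of Ccr2, stood at 14.1, 4.22, 3.89, 4.63 and 3.27 CPM in 9 months replicates 1 to 5 and at 5.07, 9.38, 32.1, 3.65 and 73.5 CPM in 24 months replicates 1 to 5. Ccl7, a further Ccr2 ligand, stood at 17.6, 4.05, 4.41, 5.65 and 2.86 CPM in 9 months replicates 1 to 5 and at 5.72, 8.38, 44.3, 6.38 and 119 CPM in 24 months replicates 1 to 5. For both genes 24 months replicates 5 and 3 were far above the rest, 9 months replicate 1 came next, and the other older mice were close to or within the range of the younger ones. The log2 fold changes were 2.04 ± 0.82 for Ccl2 and 2.41 ± 0.95 for Ccl7 (SE; edgeR adjusted p = 0.313 and 0.308). Without 24 months replicate 5 they were 1.06 and 1.22, and without 9 months replicate 1 they were 2.63 and 3.11.

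Ccl12, also a mouse ligand of Ccr2, stood at 0.846, 0.565, 0.418, 0.894 and 0.383 CPM in 9 months replicates 1 to 5 and at 2.67, 0.811, 4.26, 1.06 and 2.38 CPM in 24 months replicates 1 to 5. Every older mouse except replicate 2 lay above every younger one, and the log2 fold change was 1.86 ± 0.46 (SE; edgeR adjusted p = 0.163). Ccl3, which acts on Ccr1, stood at 0.282, 0.266, 0.104, 0.158 and 0.0174 CPM in 9 months replicates 1 to 5 and at 0.706, 0.703, 2.00, 0.155 and 0.288 CPM in 24 months replicates 1 to 5. Ccl4, its neighbour in the genome and a chemokine of activated leukocytes, stood at 0.599, 0.199, 0.131, 0.447 and 0.104 CPM in 9 months replicates 1 to 5 and at 0.963, 1.03, 2.25, 0.104 and 0.841 CPM in 24 months replicates 1 to 5. Both were highest in 24 months replicate 3, and 24 months replicate 4 was within the younger range for Ccl3 and just below it for Ccl4. Their log2 fold changes were 2.31 ± 0.74 and 1.85 ± 0.67 (SE; edgeR adjusted p = 0.201 and 0.254). Without 24 months replicate 3 that of Ccl3 was 1.56. Ccl3 in 9 months replicate 5, at 0.0174 CPM, was under the limit that a count of 0 allows.

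Ccl6 and Ccl9, mouse chemokines of myeloid cells that act through Ccr1, had smaller log2 fold changes, and Ccl6 was the most abundant of the group per length. Ccl6 stood at 143, 83.4, 90.2, 114 and 62.3 CPM in 9 months replicates 1 to 5 and at 132, 78.9, 285, 92.9 and 143 CPM in 24 months replicates 1 to 5. Only 24 months replicate 3 lay above the younger range, and the log2 fold change was 0.57 ± 0.34 (SE; edgeR adjusted p = 0.516). Ccl9 ranged over 23.8 to 53.8 CPM at 9 months and 24.9 to 129 CPM at 24 months (log2 fold change 0.68 ± 0.40). Cx3cl1, a membrane-bound chemokine of endothelium and epithelium, differed by 0.14 ± 0.24 on the log2 scale (SE), and by -0.19 without 24 months replicates 1 and 2; its level was 28.8 CPM in 24 months replicate 2 and 11.6 to 16.2 CPM in every other library.

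Of the receptors, Cx3cr1, the receptor of Cx3cl1, stood at 0.494, 1.73, 1.36, 2.13 and 1.08 CPM in 9 months replicates 1 to 5 and at 1.86, 2.35, 3.15, 2.80 and 2.60 CPM in 24 months replicates 1 to 5. All older mice but replicate 1 lay above the younger range (log2 fold change 0.91 ± 0.33, SE; edgeR adjusted p = 0.261). Ccr1 and Ccr2 had log2 fold changes of 1.05 ± 0.50 and 0.50 ± 0.47 (SE). Ccr2 was at 116 CPM in 24 months replicate 3 and at 16.3 to 40.0 CPM in the 9 others, and without that library its log2 fold change was -0.30. The 14 monocyte and macrophage markers, 14 of 14 detected and none at 0, summed to 550.0 to 839.7 CPM at 9 months and 526 to 1443 CPM at 24 months. In 24 months replicates 1 to 5 their sums were 881.3, 526, 1443, 702.1 and 950.1 CPM. Replicates 3 and 5 were the libraries high in Ccl2 and Ccl7. Replicate 1 came close to replicate 5 in the sum, with Ccl2 and Ccl7 at only 5.07 and 5.72 CPM. The markers' part in these values was not tested.

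**Figure D3:**
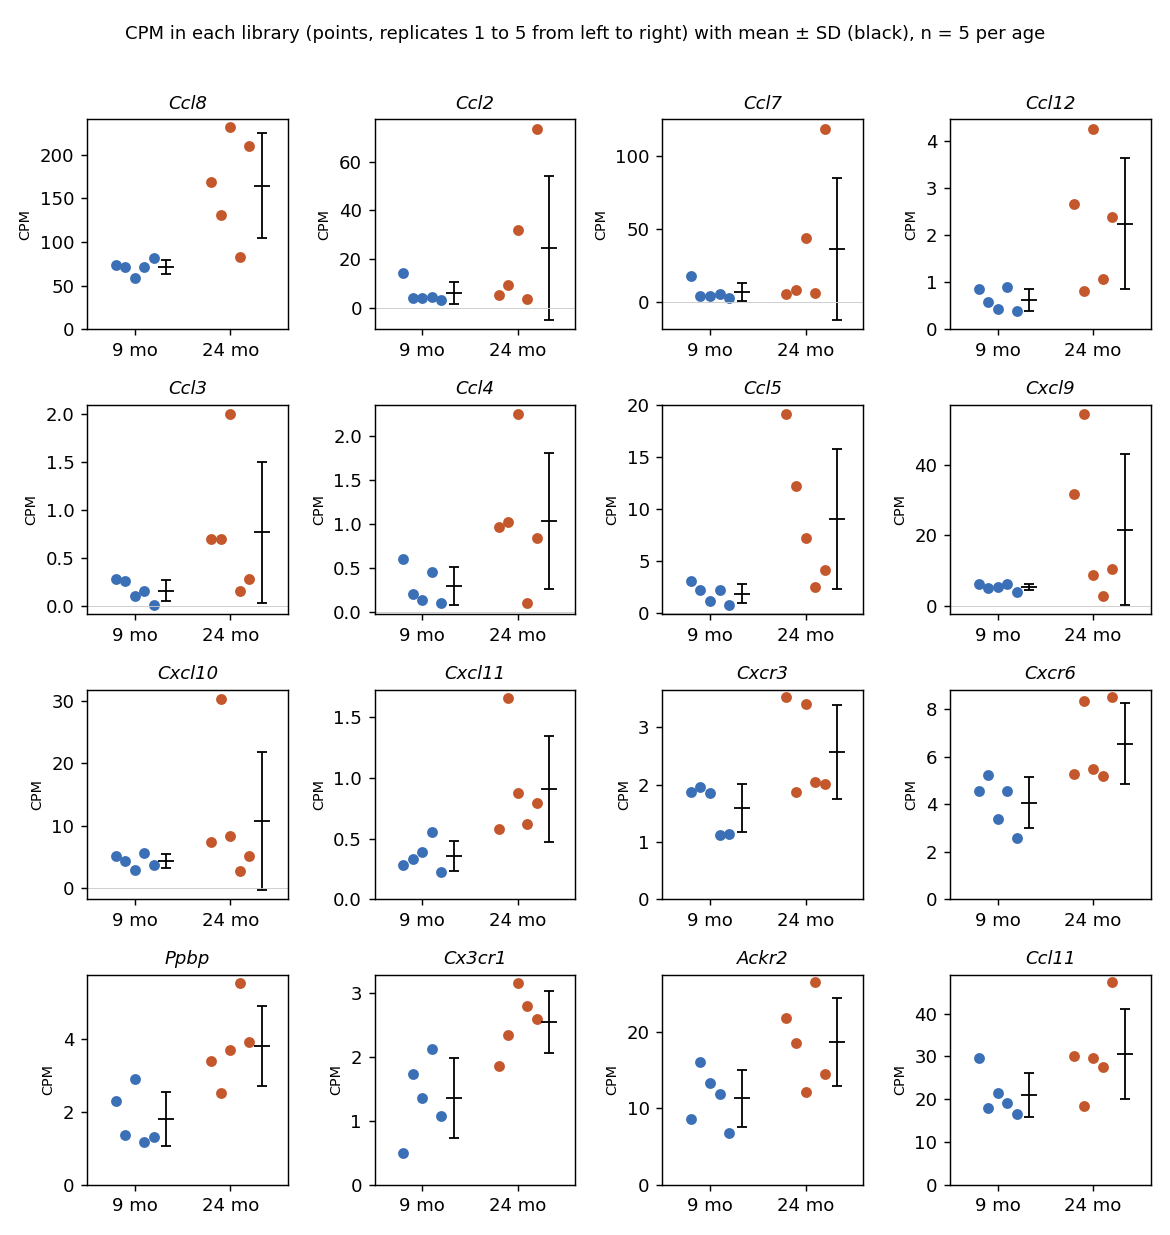
CPM in each library for the 16 genes with an edgeR p under 0.05 before adjustment, replicates 1 to 5 from left to right within each age, with mean ± SD in black (n = 5); an SD bar can reach below 0 where 1 library is far above the rest. Only Ccl8 and Cxcl11 show no overlap, each by a narrow gap, and Ccl2 and Ccl7 are highest in 24 months replicates 3 and 5.

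Chemokines and receptors of effector T cells were also higher on average at 24 months. All 7 genes had positive log2 fold changes, against 48.4% of all genes tested, with a median of 1.33. Of the 7, 6 had a p under 0.05 with higher values, against 6.62% of all genes tested. Of these 6, Ccl5, Cxcl9, Cxcl10 and Cxcl11 had one with the growing-hair covariate, and Ccl5, Cxcl9 and Cxcl11 without 9 months replicates 4 and 5. Ccl5, which T and natural killer cells make, stood at 2.997, 2.16, 1.07, 2.13 and 0.749 CPM in 9 months replicates 1 to 5 and at 19.1, 12.2, 7.21, 2.46 and 4.13 CPM in 24 months replicates 1 to 5. It was highest in 24 months replicates 1 and 2 and reached into the younger range in replicate 4 (log2 fold change 2.32 ± 0.56, SE; edgeR adjusted p = 0.163). Without 24 months replicates 1 and 2 its log2 fold change was 1.35.

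Cxcl9, Cxcl10 and Cxcl11 are neighbours on chromosome 5 and encode the interferon-induced ligands of Cxcr3. Cxcl9 stood at 6.28, 5.08, 5.35, 6.23 and 3.97 CPM in 9 months replicates 1 to 5 and at 31.9, 54.5, 8.71, 2.90 and 10.4 CPM in 24 months replicates 1 to 5. Cxcl10 stood at 5.04, 4.22, 2.90, 5.63 and 3.71 CPM in 9 months replicates 1 to 5 and at 7.39, 30.3, 8.31, 2.75 and 5.07 CPM in 24 months replicates 1 to 5. Replicate 2 was the highest for both, replicate 1 was high for Cxcl9 only, and replicate 4 was below every younger mouse. The log2 fold changes were 2.01 ± 0.62 and 1.33 ± 0.54 (SE; edgeR adjusted p = 0.192 and 0.313). Without 24 months replicates 1 and 2 they were 0.45 and 0.32, and without replicate 2 alone 1.33 and 0.45.

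The lowest older value of Cxcl11, in replicate 1, rested on 18 counts and the highest younger one, in replicate 4, on 21. Cxcl11 was thus scarce, and its ages were apart only by a narrow gap. It stood at 0.282, 0.332, 0.392, 0.552 and 0.226 CPM in 9 months replicates 1 to 5 and at 0.578, 1.65, 0.876, 0.622 and 0.793 CPM in 24 months replicates 1 to 5 (log2 fold change 1.34 ± 0.36, SE; edgeR adjusted p = 0.163). The annotation lists it as a polymorphic pseudogene, the C57BL/6 copy being known to carry a frameshift, and 1582 of its exon bases overlap a gene on the opposite strand. Cxcl10 shares 133 exon bases with Art3 on the opposite strand. Without a stated strand setting, reads in these overlaps cannot be told apart.

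The windows before Cxcl9 and Cxcl10 are shown because both genes are known to answer to interferon. Capitals mark GAAANNGAA, a core of the interferon response element, and TATAAA; both strands were searched, and the matches do not overlap. The sequences are from RefSeq on GRCm38.p6, minus strand read 5′ to 3′, at chr5:92328080-92328329 for Cxcl9 and chr5:92348890-92349139 for Cxcl10.
Cxcl9: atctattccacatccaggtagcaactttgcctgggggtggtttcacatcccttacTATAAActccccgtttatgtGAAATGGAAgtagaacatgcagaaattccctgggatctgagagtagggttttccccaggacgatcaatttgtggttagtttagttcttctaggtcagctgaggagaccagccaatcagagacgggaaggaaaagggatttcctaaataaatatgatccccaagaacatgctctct
Cxcl10: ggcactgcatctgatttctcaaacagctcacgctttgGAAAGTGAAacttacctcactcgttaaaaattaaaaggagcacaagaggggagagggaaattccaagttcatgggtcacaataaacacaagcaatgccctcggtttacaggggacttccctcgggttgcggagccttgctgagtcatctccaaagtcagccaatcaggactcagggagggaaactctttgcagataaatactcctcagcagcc
GAAANNGAA lay 175 to 167 bases before the start of Cxcl9 and 213 to 205 before that of Cxcl10, and TATAAA lay 195 to 190 bases before that of Cxcl9. GAAANNGAA was found in 7.13% of all 32851 windows and in 5 of the 37 genes of the list with a window, Ccl3, Ccr2, Cxcl9, Cxcl10 and Cxcl14. Here too the first share counts windows and the second counts genes.

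The receptors of these T cells had log2 fold changes below those of Cxcl9, Cxcl10 and Cxcl11; that gap was not tested. Cxcr3 stood at 1.87, 1.96, 1.85, 1.13 and 1.13 CPM in 9 months replicates 1 to 5 and at 3.53, 1.87, 3.41, 2.05 and 2.02 CPM in 24 months replicates 1 to 5. Cxcr6, which marks resident T cells, stood at 4.58, 5.25, 3.39, 4.58 and 2.59 CPM in 9 months replicates 1 to 5 and at 5.27, 8.35, 5.48, 5.18 and 8.53 CPM in 24 months replicates 1 to 5. For each receptor 4 of the 5 older mice lay above all younger ones, and the log2 fold changes were 0.70 ± 0.28 and 0.69 ± 0.25 (SE; edgeR adjusted p = 0.301 and 0.25). Cxcl16, the ligand of Cxcr6 and the most abundant gene of the group per length, stood at 40.4, 36.9, 32.2, 23.8 and 20.1 CPM in 9 months replicates 1 to 5 and at 26.9, 46.3, 38.2, 32.0 and 38.6 CPM in 24 months replicates 1 to 5. The ages overlapped widely (log2 fold change 0.25 ± 0.21, SE), and 552 of its exon bases overlap Zmynd15 on the opposite strand. The 13 T cell markers, all 13 detected, summed to 32.6 to 91.4 CPM at 9 months and 66.5 to 112 CPM at 24 months, with 112 and 84.2 CPM in 24 months replicates 1 and 2; Cd28 was at 0 in 1 of 10 libraries. The 7 natural killer cell markers, all 7 detected, summed to 4.26 to 8.47 CPM at 9 months and 9.28 to 25.3 CPM at 24 months, with no overlap between the ages. Klrk1 and Prf1 had the highest means in that list, 3.13 and 2.64 CPM at 9 months and 6.14 and 4.68 CPM at 24 months. Ncr1, under the filter, Klrb1c and Eomes were scarce. Their means were 0.171, 0.182 and 0.107 CPM at 9 months and 0.61, 0.36 and 0.867 CPM at 24 months. The part of either list in these values was not tested.

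Ccl7 and Cxcl9 were highest in different older mice. Ccl7 was highest in 24 months replicates 5 and 3, where Cxcl9 was at 10.4 and 8.71 CPM. Cxcl9 was highest in replicates 2 and 1, where Ccl7 was at 8.38 and 5.72 CPM. Replicate 4 was low in both. Other ligands did not divide in this way: Ccl12, Ccl3 and Ccl4 were highest in replicate 3 and next highest in replicate 1 or 2, and Cxcl10 and Cxcl11 were second highest in replicate 3.

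**Figure D4:**
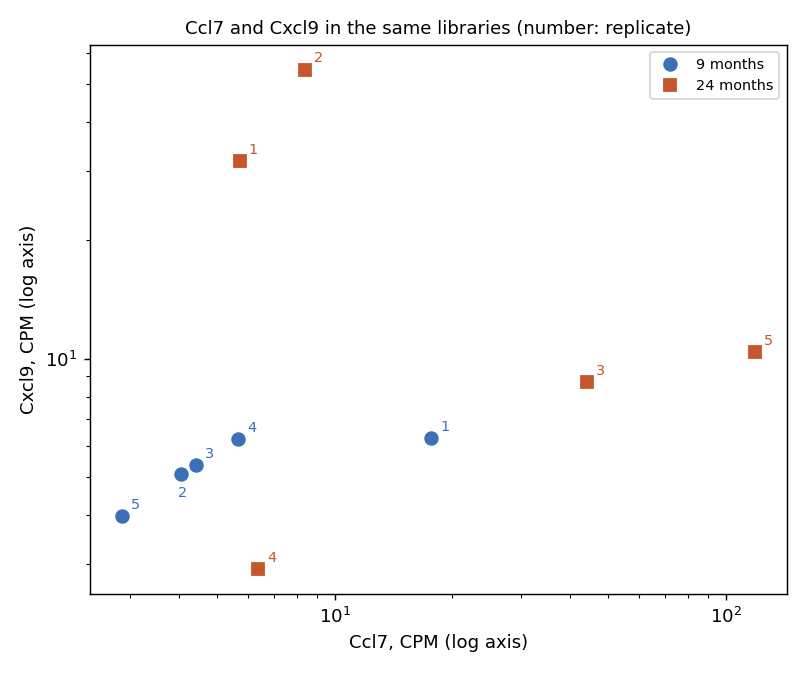
Ccl7 against Cxcl9 in CPM, both on log axes, for the 10 libraries with their replicate numbers. The older mice spread along both axes: replicates 3 and 5 lie to the right at 44.3 and 119 CPM of Ccl7, replicates 1 and 2 lie at the top at 31.9 and 54.5 CPM of Cxcl9, and replicate 4 lies near the younger mice.

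Of the 5 neutrophil chemokines, the ligands of Cxcr2, 3 were under the filter. Ppbp, the platelet granule chemokine whose cleaved form attracts neutrophils, stood at 2.29, 1.36, 2.90, 1.18 and 1.32 CPM in 9 months replicates 1 to 5 and at 3.40, 2.51, 3.71, 5.55 and 3.92 CPM in 24 months replicates 1 to 5. Every older mouse except replicate 2 lay above the younger range (log2 fold change 1.08 ± 0.31, SE; edgeR adjusted p = 0.164). Cxcl1 stood at 0.105 to 4.65 CPM at 9 months and 0.233 to 5.17 CPM at 24 months, with the high values in 9 months replicate 1 and 24 months replicates 3 and 5, and a log2 fold change of 0.53 ± 1.02 (SE), which was -0.57 with the growing-hair covariate. Cxcl2 ranged over 0.0522 to 0.237 CPM at 9 months and 0.0642 to 1.03 CPM at 24 months, and Cxcl3 and Cxcl5 reached at most 0.108 and 0.216 CPM. Cxcl5 was at 0 in 4 libraries and Cxcl3 in 1, and no fold is given for the 3 genes. Fitted without the filter, Cxcl2 and Cxcl5 had a p under 0.05 before adjustment with higher values at 24 months.

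The receptor side of this axis was measured on Cxcr2, which is not among the 47. Cxcr2 stood at 0.141, 0.199, 0.131, 0.395 and 0.348 CPM in 9 months replicates 1 to 5 and at 2.09, 0.757, 2.70, 1.66 and 1.20 CPM in 24 months replicates 1 to 5, with no overlap between the ages (log2 fold change 2.74 ± 0.42, SE; edgeR adjusted p = 0.142). The 11 neutrophil markers, Cxcr2 among them, were all detected and summed to 117 to 224 CPM at 9 months and 156 to 252 CPM at 24 months; the defining gene Ly6g was at 0 in 5 libraries and Ngp in 4. Most of that sum was Il1r2 and Mmp9, which overlapped between the ages, while S100a8, S100a9, Csf3r, Mmp8 and Cxcr2 lay higher in every older mouse than in any younger one, where 1.66% of all genes did. The 6 platelet markers summed to 24.8 to 30.7 CPM at 9 months and 28.1 to 39.4 CPM at 24 months, with Gp6 at 0 in 1 library. Their part in the value of Ppbp was not tested.

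Among the eosinophil genes, Ccl11, the eotaxin of dermal fibroblasts, stood at 29.7, 17.9, 21.5, 19.1 and 16.6 CPM in 9 months replicates 1 to 5 and at 30.0, 18.5, 29.5, 27.5 and 47.4 CPM in 24 months replicates 1 to 5. It was highest in 24 months replicate 5, and 2 older mice lay above all younger ones (log2 fold change 0.54 ± 0.24, SE; edgeR adjusted p = 0.36). Ccl24, a further eotaxin, and Ccr3, their receptor, had log2 fold changes of -0.02 ± 0.41 and -0.31 ± 0.69 (SE). Ccr3 ranged over 0.184 to 0.966 CPM at 9 months and 0.104 to 1.33 CPM at 24 months. Without 24 months replicate 3, its highest library, its log2 fold change was -1.44, with a p under 0.05 before adjustment. The 5 eosinophil markers summed to 5.76 to 11.96 CPM at 9 months and 8.53 to 16.3 CPM at 24 months. Their log2 fold changes differed in direction: -0.59 ± 0.31 for Ear2, 0.73 ± 0.46 for Siglecf and 3.23 ± 0.80 for Il5ra (SE). Il5ra reached 12.9 CPM at 24 months, so the sum gives no direction for eosinophils. Epx and Prg2 were under the filter, and the defining peroxidase gene Epx was at 0 in 6 of 10 libraries.

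Ccl20, which draws type 17 T cells and immature dendritic cells through Ccr6, stood at 3.88, 1.93, 1.54, 1.21 and 2.403 CPM in 9 months replicates 1 to 5 and at 0.835, 3.49, 4.73, 2.46 and 8.97 CPM in 24 months replicates 1 to 5. The ages overlapped, with replicate 5 the highest and replicate 1 the lowest of all, and the log2 fold change was 0.91 ± 0.52 (SE; edgeR adjusted p = 0.504). Ccr6 was at 0 in 9 months replicate 1 and at most 0.698 CPM elsewhere. Xcl1, which draws cross-presenting dendritic cells, stood at 2.29, 1.83, 2.17, 1.71 and 0.905 CPM in 9 months replicates 1 to 5 and at 1.45, 2.92, 0.751, 1.76 and 2.69 CPM in 24 months replicates 1 to 5. Xcl1 and its receptor Xcr1 had log2 fold changes of 0.11 ± 0.37 and 0.45 ± 0.28 (SE), and 98 exon bases of Xcl1 overlap a gene on the opposite strand. Ccl25, which guides thymocytes and gut lymphocytes, stood at 2.22, 1.93, 1.62, 2.87 and 2.96 CPM in 9 months replicates 1 to 5 and at 3.44, 2.30, 1.75, 1.92 and 2.24 CPM in 24 months replicates 1 to 5 (log2 fold change 0.00 ± 0.26, SE). Of the exon bases of Ccl25, 204 overlap Elavl1 on the opposite strand. For Xcl1 and Ccl25 the ages covered nearly the same range.

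The homeostatic genes overlapped between the ages, and 0 of the 4 had a p under 0.05 before adjustment. Cxcl14, made steadily by epidermis, stood at 317, 241, 249, 221 and 382 CPM in 9 months replicates 1 to 5 and at 99.6, 393, 169, 232 and 232 CPM in 24 months replicates 1 to 5. The lowest value, in 24 months replicate 1, and the highest, in replicate 2, were both in older mice (log2 fold change -0.32 ± 0.31, SE; edgeR adjusted p = 0.715). Without 24 months replicate 2 it was -0.62, with a p under 0.05 before adjustment and an edgeR adjusted p of 0.403. Cxcl12, the stromal chemokine that holds Cxcr4-bearing cells in place, was at 223 ± 59.8 and 212 ± 13.6 CPM (SD, 5 mice each; log2 fold change -0.07 ± 0.17), with 328.6 CPM in 9 months replicate 5 against 189 to 227 CPM in the 9 others. Cxcr4 was highest at 15.4 CPM in 24 months replicate 1 and ranged from 3.68 to 9.94 CPM elsewhere. Pf4, made by megakaryocytes and macrophages, was at 32.98 ± 13.2 and 33.6 ± 14.5 CPM (SD, 5 mice each; log2 fold change 0.03 ± 0.34), and is stored with Ppbp in platelet granules; the difference between their fold changes was not tested.

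The atypical receptors remove or move chemokines rather than recruit cells. Ackr2, which degrades inflammatory CC chemokines, stood at 8.53, 16.0, 13.3, 11.9 and 6.79 CPM in 9 months replicates 1 to 5 and at 21.8, 18.5, 12.1, 26.5 and 14.5 CPM in 24 months replicates 1 to 5. Replicates 1, 2 and 4 of the older mice lay above every younger one (log2 fold change 0.73 ± 0.27, SE; edgeR adjusted p = 0.262). Ackr1, the Duffy receptor of venules, stood at 60.7, 33.8, 27.1, 20.04 and 22.0 CPM in 9 months replicates 1 to 5 and at 36.4, 25.4, 59.4, 38.2 and 66.1 CPM in 24 months replicates 1 to 5. The ages overlapped (log2 fold change 0.46 ± 0.33, SE), and 361 of its exon bases are shared with Cadm3 on the same strand. Ackr3, which takes up Cxcl12, and Ackr4, which takes up the homing chemokines Ccl19, Ccl21 and Ccl25, had log2 fold changes of -0.05 ± 0.21 and 0.18 ± 0.25 (SE). The 479 exon bases that Ackr4 shares with Acad11 leave its level uncertain.

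**Figure D5:**
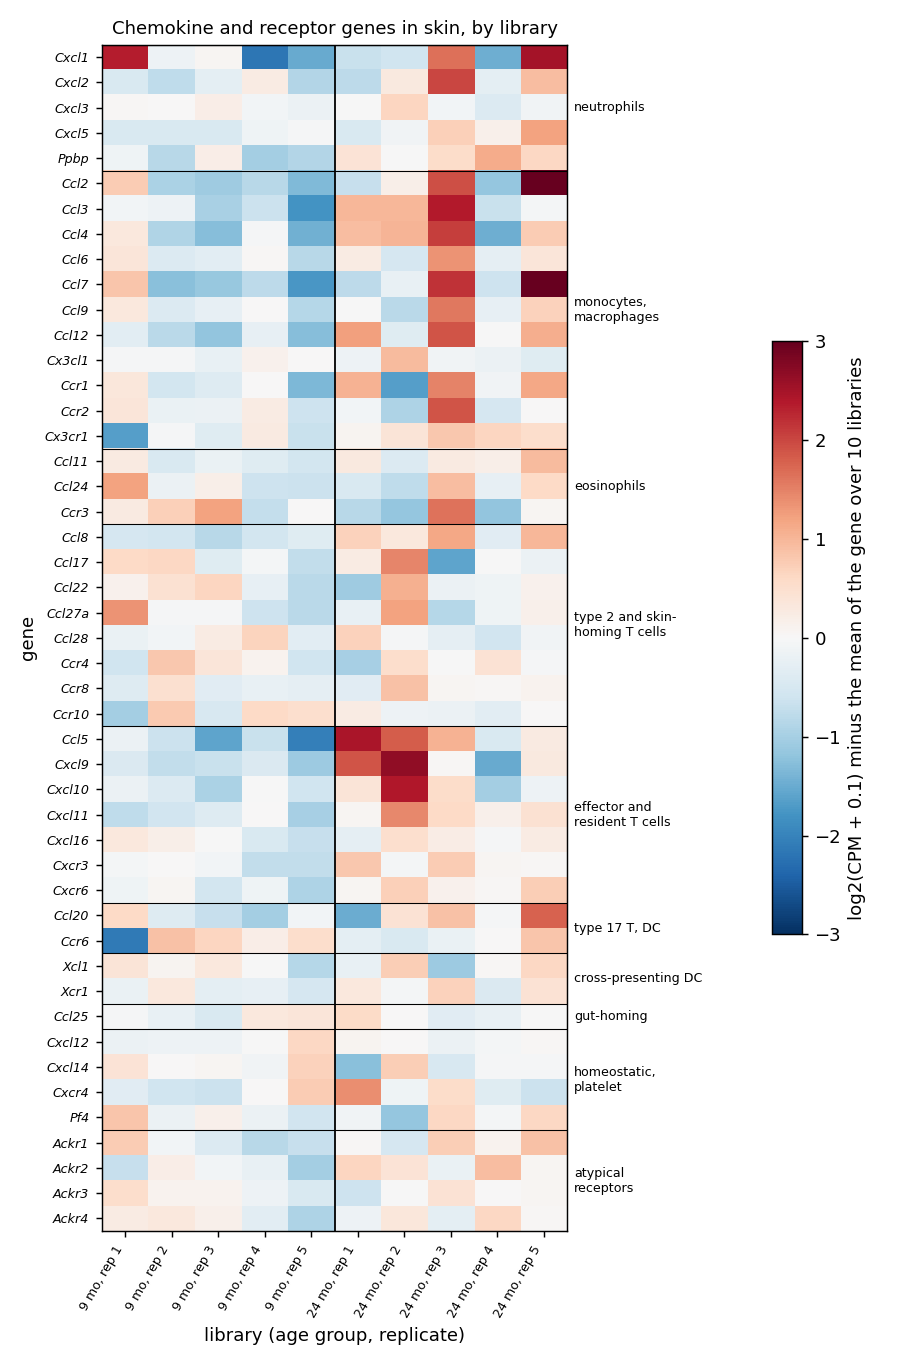
Log2(CPM + 0.1) of each of the 47 genes minus the gene's mean over the 10 libraries, with colours limited at 3 on either side of 0, columns by library and rows in blocks by the cell recruited. In the monocyte block Ccl2 and Ccl7 are reddest in 24 months replicates 5 and 3, and in the effector T cell block Ccl5 and Cxcl9 are reddest in replicates 1 and 2.

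By position, the 10 genes of the CC clusters on chromosome 11 all had positive log2 fold changes, against 48.4% of all genes tested. This direction was not particular to them, as 35 of the 44 members tested were positive. The first cluster, Ccl2, Ccl7, Ccl11, Ccl12 and Ccl8 (GRCm38, 82035571 to 82116799), had a median of 1.86. The second, Ccl5, Ccl9, Ccl6, Ccl3 and Ccl4 (83525778 to 83664683), had a median of 1.85. The 3 neighbours Ccl22, Cx3cl1 and Ccl17 on chromosome 8 had log2 fold changes between 0.01 and 0.25. In the clusters on chromosome 5 every gene tested was positive too. The recruited-cell groups and these clusters share genes, so the medians are no separate evidence.

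Of 14 other chemokine and receptor genes, 9 were tested, all 9 had positive log2 fold changes with a median of 0.98, and 4 had a p under 0.05 before adjustment, with 0 lower, against 48.4% positive and 6.62% with such a p over all genes tested. This list was chosen with earlier results of these data known, so the shares over all genes are no test of it. The 4 with the smallest p were Cxcr2, given above, Cxcr5, Cxcl13 and Ccr7. Cxcr5, the receptor that brings B cells to follicles, was at 1.29 to 3.21 CPM at 9 months and 1.51 to 22.2 CPM at 24 months (log2 fold change 2.07 ± 0.53, SE; edgeR adjusted p = 0.163). Cxcl13, its ligand, was at 3.19 to 6.80 CPM at 9 months and 6.66 to 162 CPM at 24 months (3.37 ± 0.89; edgeR adjusted p = 0.164); without 24 months replicates 1 and 2 its log2 fold change was 0.99. The 10 B and plasma cell markers summed to 160.2 to 510.4 CPM at 9 months and 276 to 1830 CPM at 24 months, and their part in these values was not tested. Ccr7, the receptor for migration to lymph nodes, was at 0.923 to 1.99 CPM at 9 months and 1.63 to 4.03 CPM at 24 months (0.98 ± 0.29; edgeR adjusted p = 0.177). Ccl21a was listed at 0 in all 10 libraries; it has near-identical copies, and how reads that match several places were counted is not given in the sources used here. Ccl26, Cxcl15, Cxcl17 and Cxcr1 were also under the filter.

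Genes that relay or induce chemokine signals were followed as well. Their list was also chosen with earlier results known, so the shares over all genes given beside it are no test. Of 30 listed genes 29 were tested, 26 had positive log2 fold changes with a median of 0.27, and 11 had a p under 0.05 before adjustment, with 0 lower; over all genes tested 48.4% were positive and 6.62% had such a p. Pik3r5, a regulatory subunit of the lipid kinase that chemokine receptors activate in leukocytes, had a log2 fold change of 1.34 ± 0.25, Itgal, the integrin chain of lymphocyte adhesion, 1.24 ± 0.31, the leukocyte GTPase Rac2 1.401 ± 0.37, and the cytokine Il1b 1.403 ± 0.42 (SE; edgeR adjusted p = 0.142, 0.163, 0.163 and 0.18). Pik3r5 and Itgal, 2 of the 29, did not overlap between the ages, against 1.66% of all genes.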

How the data were processed

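RNA was extracted from skin of 10 mice and prepared with an Illumina kit for mRNA libraries, per the labels' protocols. CASAVA 1.7, STAR 2.4.1d and featureCounts 1.4.6-p4 with build GRCm38 are named in the submitters' processing notes, without their roles; the strand setting and multi-mapping are not stated. The deposited whole-number counts per Ensembl gene were the basis of every result. The deposited table that the authors name RPKM is not divided by each library's own total: over 8455 genes the length implied by count and value differed between libraries by a median of 2.68-fold, so it served only as an alternative (log2 of the value plus 0.1). Symbols came from a gene table, and exon lengths and positions from GENCODE on GRCm38.

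Genes were filtered with filterByExpr, scaled with TMM factors and tested with edgeR 4.0.16 (robust quasi-likelihood F test, no covariate, Benjamini-Hochberg over 17668 genes, R 4.3.3); SE came from the F statistic. The script was tested on simulated data. Levels are CPM after scaling. DESeq2 1.42.0, limma 3.58.1, other scalings, no filter, a hair covariate and omitted libraries were alternatives. Replicate numbers follow the listed order, from 1 in each age. No 2 libraries were alike within counting noise.

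The genes and lists were chosen with earlier results of these data known. Values by library are given for tested genes with a p under 0.05 and for the most abundant gene per length of each recruited-cell group; up to 4 genes with the smallest p are named from each other list. In the marker lists, 2 genes had no match.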

Additional observations from a re-analysis of the deposited data

Results flagged for a closer look

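In a group of 5 mice, a library was marked where its gap to the nearest other mouse exceeded 0.71 of the group's whole range (Dixon's 95% critical value). This held for 14 of 88 groups, each time for the highest library of the group. The nominal rate of about 1 group in 20 assumes normal values, and CPM were used here without a log scale. The share of all genes that would be marked was not worked out, so the count shows no excess over chance.

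In 9 months replicate 1, Cxcl1 at 4.65, Ccl2 at 14.1, Ccl7 at 17.6, Ccl24 at 34.7 and Ccl27a at 92.8 CPM lay far above the other younger mice. In 9 months replicate 2, Ccr8 was high at 0.532 CPM, and in 9 months replicate 5, Cxcl12 was high at 328.6 CPM. In 24 months replicate 2, Cx3cl1 at 28.8, Ccr8 at 0.73, Cxcl10 at 30.3 and Cxcl11 at 1.65 CPM lay far above the other older mice. In 24 months replicate 3, Ccr2 at 116 and Ccr3 at 1.33 CPM did so, and in 24 months replicate 5, Ccr6 at 0.673 CPM.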

How the results depend on the processing

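The count of 16 members with a p under 0.05 and higher values stayed between 11 and 18 over single omitted libraries. Over all genes it then ran from 933 of 17873 to 1362 of 17921. It was 7 with the growing-hair covariate and 8 without 9 months replicates 4 and 5, against 1528 of 17668 and 839 of 18036 genes. The count of lower members was 0 to 1 over single omitted libraries, where 923 to 1442 of all genes were lower. The 1 was Cxcl14 without 24 months replicate 2 and Ccr3 without replicate 3. Without the filter the higher count was 17, against 1666 of 31273 genes, with Cxcl2 and Cxcl5 gained and Ccl2 lost. The median log2 fold change of 0.48 stayed between 0.30 and 0.63 over the 20 alternatives. Members with an adjusted p under 0.05 were 0 in the edgeR test, 0 in limma-voom with or without quality weights, and 7 in DESeq2. Over single omitted libraries they were 0 to 1, the 1 being Ccl8 without 24 months replicate 4, where 8 of 17884 genes were called. Over all genes, adjusted calls were 0 higher and 0 lower in edgeR and 384 and 387 in DESeq2. The cause of these differences was not tested.

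Some fold changes turned sign. These were not only values near 0: Ackr1 at 0.46, Ccr2 at 0.50 and Cxcl1 at 0.53 were among them, where the median of the members was 0.48. Cxcl16 was -0.094 with the hair covariate and -0.0096 without 9 months replicates 4 and 5, and Ackr1 was -0.11 with the covariate. Xcl1 was -0.23 with quality weights, -0.18 with the covariate, -0.13 without 9 months replicates 4 and 5, -0.030 without 24 months replicates 1 and 2, -0.12 from the RPKM table, and -0.089 to 0.315 over single omitted libraries. Ccl25 was -0.0076 with RLE factors, -0.019 without the filter, -0.014 in DESeq2, -0.023 in limma-voom, -0.00019 with quality weights, -0.24 without 24 months replicates 1 and 2, and -0.18 to 0.11 over single omitted libraries. The other members given library by library kept their direction in the 20 alternatives. Of the 21 members given by range, none with a p under 0.05, 4 kept it (Ccl9, Ccr1, Ccr8 and Xcr1) and 17 turned sign in at least 1 of 20 alternatives. Those 17 had log2 fold changes between -0.33 and 0.53, and the widest ranges were -0.57 to 1.97 for Cxcl1, -1.44 to 0.21 for Ccr3, -0.65 to 0.53 for Ccl17 and -0.30 to 0.89 for Ccr2.

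No paired analysis was possible because the labels give the ages no shared replicate numbers. Genes under about 0.1 CPM are limited by depth.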

Other observations

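Some neighbouring ligands kept similar ratios within a library while their levels varied, and others did not. Ccl7 over Ccl2 was between 0.872 and 1.75 in the 10 libraries, although Ccl7 varied 41.6-fold and Ccl2 22.4-fold between the lowest and the highest library. Ccl6 over Ccl9 was between 2.04 and 3.17, with 4.57-fold and 5.43-fold spans. Cxcl9 over Cxcl10 was less even, between 1.05 and 4.32, and the highest ratio was in 24 months replicate 1. The neighbours Ccl8 and Ccl12 were uneven too. They were at 81.4 and 0.383 CPM in 9 months replicate 5 and at 232 and 4.26 CPM in 24 months replicate 3.

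Il6, an inflammatory cytokine chosen here after its values were seen, stood at 1.06, 0.764, 0.287, 0.158 and 0.209 CPM in 9 months replicates 1 to 5 and at 0.257, 0.189, 2.23, 0.155 and 2.84 CPM in 24 months replicates 1 to 5. Its highest libraries, 24 months replicates 5 and 3 and 9 months replicate 1, were also the 3 highest in Ccl2 and Ccl7. Irf1, a transcription factor of the interferon response that was also chosen after its values were seen, was highest in 24 months replicate 2, at 138 CPM, as were Cxcl9 and Cxcl10.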
